A study of Mus musculus with 6 samples.

Results

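Changes in chromatin accessibility between mouse embryonic stem cells (ESC) and neural progenitor cells (NPC) are described here at the SP1 binding sites around 7 genes that pattern the developing nervous system, En1, Gbx2, Egr2, Lmx1a, Olig3, Lhx4 and Lhx9. A site belonged to a gene when its midpoint lay inside the gene or within 50000 bp of either end, by RefSeq positions on mm10. This gave 48 of the 9001 sites listed in the authors' deposited table, each 500 bp wide: 16 at Lmx1a, 8 at Gbx2, 7 at Olig3, 5 each at En1 and Lhx9, 4 at Lhx4 and 3 at Egr2. Every gene kept at least 3 sites, and no site belonged to 2 of them. The label of neural patterning genes was taken from what these genes are known for. Their RNA was not measured in the values used here.

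The study measured accessibility by ATAC-seq, in which the Tn5 transposase cuts open chromatin and leaves adapters for sequencing. The groups were R1 ESC (labelled R1_mESC) and NPC (labelled R1_NPC), both of strain R1, with 3 libraries each from cryopreserved cells and no treatment or time point in the labels. Neither the method by which the NPC were derived nor the region of the nervous system they resemble is given in the sources used here. High-confidence sites of SP1, a zinc-finger factor that binds GC-rich DNA, were compared by the authors as NPC over ESC, a direction taken from the name of their table, which lists sites on chromosomes 1 and 10 and the first part of 11. No values of single libraries were used, so each result is the authors' log2 fold change with its standard error (SE), and mean signal is a normalized count, averaged by the authors over all libraries. The labels do not state whether the replicates were separate cultures, so the p-values measure a spread that may be technical. As a check of the labels, 29 of 59 sites at the 7 ESC marker genes fell and 12 rose. At the 4 NPC marker genes 13 of 25 sites rose and 3 fell, while over all listed sites 22.8% rose and 32.6% fell. Not every marker went this way. At Nodal 4 of 15 sites rose and 3 fell, at Lefty2 4 of 8 went each way, and at Nr2e1 1 of 5 fell without a rise. By called sites the other markers went the way of their list, though the median log2 fold change at the ESC marker Nr5a2 was 1.36. Lefty1 and Lefty2 shared sites. The lists were chosen with earlier results of these data known, so the check is weak. At genes of other cell types, 4 of 8 sites of the mesoderm and endoderm genes fell and 1 rose. At the glial gene Gja1 4 of 7 fell and 1 rose. Of the 26 sites of the neuron genes 12 rose and 8 fell, but these genes differed. At Map2 10 of 14 sites rose and 2 fell, while at Syt1 2 of 12 rose and 6 fell. The part of any such cells in the results was not tested.

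During development the neural tube is divided into territories by transcription factors that switch on in stripes along its length and from its back to its belly. En1 and Gbx2 encode homeodomain proteins that act around the boundary between midbrain and hindbrain, Gbx2 on its hindbrain side. Egr2 encodes a zinc-finger protein of alternate hindbrain segments. Lmx1a encodes a LIM-homeodomain protein of the roof plate and of midbrain dopaminergic progenitors, and Olig3 a basic helix-loop-helix protein of dorsal progenitors. Lhx4 and Lhx9, also LIM-homeodomain genes, act in motor neurons and the pituitary and in dorsal interneurons, respectively. Gbx2 is also known in mouse ESC as a target of LIF signalling, and Egr2 as a gene induced early by growth factors.

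The authors' sites covered the whole of the 250 bases before the start of En1, Lmx1a and Olig3, and before some starts of Egr2, which are not shown. En1, Lmx1a and Olig3 are shown because the site over the start rose, fell and was not called, respectively. The sequences are RefSeq's (GRCm38.p6, all on the plus strand, at chr1:120602237-120602486, chr1:167689308-167689557 and chr10:19356289-19356538), and capitals mark matches to the GC box GGGCGG or its complement CCGCCC.
En1: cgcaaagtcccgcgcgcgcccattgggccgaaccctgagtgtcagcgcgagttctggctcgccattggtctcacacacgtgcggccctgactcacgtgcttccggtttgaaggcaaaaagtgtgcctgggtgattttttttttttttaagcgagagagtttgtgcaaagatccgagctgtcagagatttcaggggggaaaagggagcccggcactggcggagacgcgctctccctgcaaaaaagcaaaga
Lmx1a: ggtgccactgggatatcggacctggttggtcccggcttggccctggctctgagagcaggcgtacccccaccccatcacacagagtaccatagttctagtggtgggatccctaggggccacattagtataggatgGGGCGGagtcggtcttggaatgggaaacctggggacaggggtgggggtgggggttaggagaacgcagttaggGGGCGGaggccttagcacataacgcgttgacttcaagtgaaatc
Olig3: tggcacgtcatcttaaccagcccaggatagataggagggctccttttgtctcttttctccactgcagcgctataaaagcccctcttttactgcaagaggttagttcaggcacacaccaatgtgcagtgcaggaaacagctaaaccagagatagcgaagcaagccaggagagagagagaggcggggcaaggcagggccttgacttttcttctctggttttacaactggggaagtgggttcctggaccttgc
The Lmx1a window held 2 matches, with first bases 116 and 44 bases before the start, and the En1 and Olig3 windows held none. Of 32817 RefSeq start windows of this length, 32.7% held a match on either strand. Among the 1290 windows of the listed regions that a site of the table overlapped, the share was 58.4%. The En1 window held 19 CpG dinucleotides, against 9 for Lmx1a and 4 for Olig3. Base composition before the start was 56.0% G or C for En1, 59.2% for Lmx1a and 51.6% for Olig3. A window without a match says only that these letters are not in it.

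Over the start of En1 accessibility rose in NPC, over that of Lmx1a it fell, and over those of Olig3 and Egr2 no change was called. The site centred 177 bp before the En1 start (chr1:120602060-120602560) had the highest mean signal of the 48, 29.6, and rose 3.09-fold, a log2 change of 1.63 ± 0.32 (SE), with an adjusted p of 4.57e-06 by the authors' deposited table. At Lmx1a the site centred 74 bp before the start (chr1:167689234-167689734, mean signal 7.03) had a log2 fold change of -2.53 ± 0.75, or 5.79-fold lower in NPC, with an adjusted p of 0.00154 by the authors' deposited table. For Olig3 the site centred 225 bp before the start (chr10:19356064-19356564) had -1.89 ± 1.17 with a 95% interval of -4.19 to 0.41 and a mean signal of 2.90 by the authors' deposited table (adjusted p = 0.0754). The Egr2 site over 4 of its 5 listed starts (chr10:67537545-67538045) had a log2 fold change of 0.61 ± 0.35, with a 95% interval of -0.08 to 1.30 and a mean signal of 22.5, by the authors' deposited table (adjusted p = 0.0715). With fold changes centred on the median of all listed sites that Egr2 site was called, at 0.89 (adjusted p = 0.0275, recomputed). Gbx2, Lhx4 and Lhx9 had no site over the start that RefSeq lists for them.

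In all, 7 of the 48 sites rose in NPC (14.6%) and 15 fell (31.2%), while 26 were not called at the authors' adjusted p below 0.05. Across the 9001 listed sites 22.8% rose and 32.6% fell, so the share of falls lay near the background and that of rises below it, a difference that was not tested. The median log2 fold change of the 48 sites was -0.30 (quartiles -2.40 and 0.42), against -0.29 for all listed sites (quartiles -2.48 and 1.09), by the authors' deposited table. Called rises ranged from 0.95 to 4.62 with a median of 2.79, and called falls from -1.64 to -4.05 with a median of -2.92. The median of the 7 gene medians was of the other sign, 0.33, and without Lmx1a 9 sites fell. Centred on the median of all sites, with p recomputed, 8 sites rose and 9 fell.

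**Figure D1:**
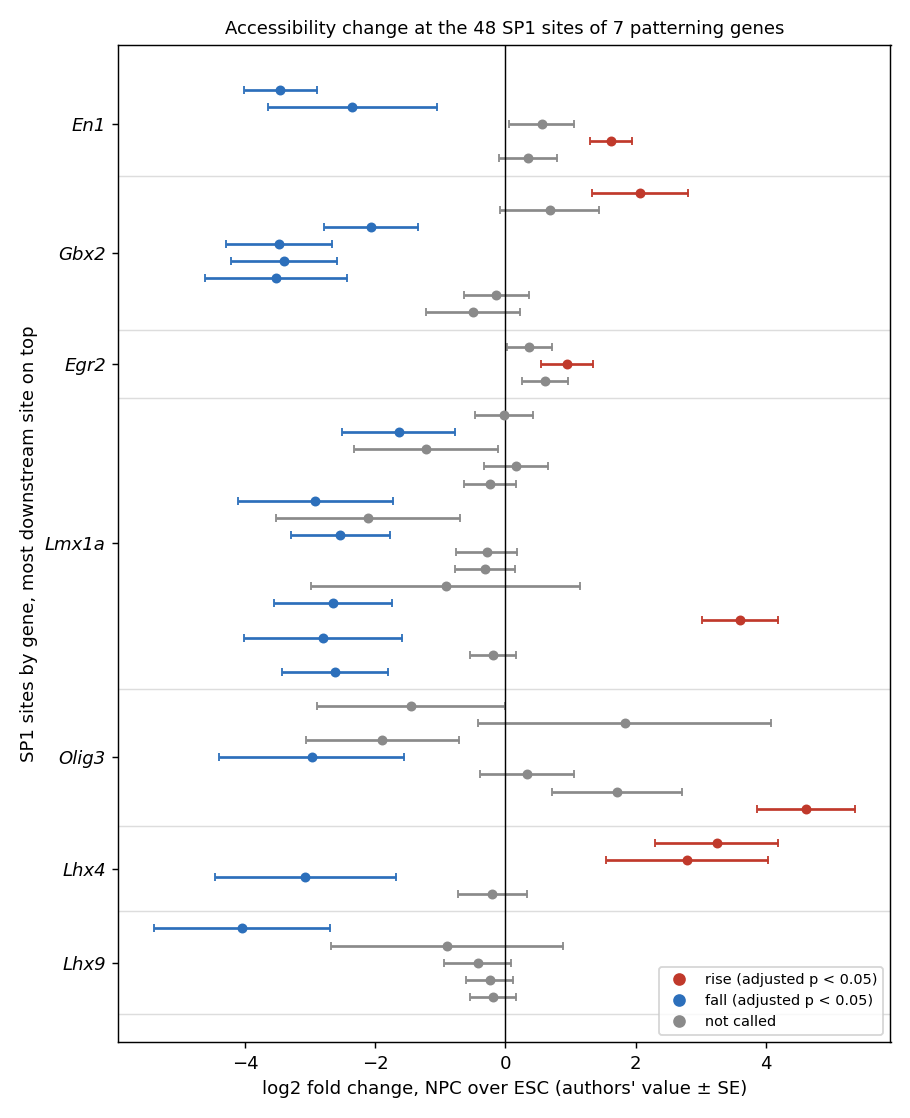
Log2 fold change of accessibility, NPC over ESC, at each of the 48 sites, grouped by gene, with bars of 1 SE from the authors' fit. Called rises reach 4.62 at Olig3 and called falls reach -4.05 at Lhx9, and 5 of the 7 genes have called sites in both directions (3 with p recomputed). Among the 1847 protein-coding genes with 3 to 16 listed sites, 58.5% have both (47.1% with p recomputed).

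En1 (chr1:120602487-120607991, plus strand) combined a rise at its start with falls behind its far end. The second site at the start, centred 532 bp inside the gene, had 0.56 ± 0.50 by the authors' deposited table, and the one 7.73 kb before the start had 0.34 ± 0.45, neither called. Both falls lay within the long non-coding RNA gene 2610027F03Rik, beyond the 3' end of En1. The larger (chr1:120644152-120644652, 36.4 kb from the gene) had a mean signal of 18.0 and a log2 fold change of -3.46 ± 0.56, 11.0-fold lower in NPC, with an adjusted p of 2.07e-08 by the authors' deposited table. The smaller, 22.4 kb from the gene, had a mean signal of 2.75 and -2.35 ± 1.29 (adjusted p = 0.0475) by the authors' deposited table, a call that was lost with p recomputed from the fold change over its SE (adjusted p = 0.125). Recomputed p-values were at least as large as the deposited ones at all 9001 listed sites. For that reason a call lost this way, here or at the genes below, is no independent check of a site.

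Gbx2 (chr1:89927962-89931176, minus strand) had called falls on both sides of the gene, though only 2 of its sites had Gbx2 as the nearest protein-coding gene. Of its 8 sites 4 fell, all within 12 kb of the start, 1 rose farther away and 3 were not called. Behind the 3' end, the site 567 bp from the gene (chr1:89927145-89927645) had -3.48 ± 0.81 with an adjusted p of 6.78e-05 by the authors' deposited table, and the one 5.99 kb from the gene had -2.06 ± 0.72 (adjusted p = 0.00529). Before the start, the pair 9.42 and 11.1 kb away had -3.40 ± 0.81 and -3.52 ± 1.09, with adjusted p of 0.00011 and 0.00169, by the authors' deposited table. For both of this pair the nearest protein-coding gene was LOC102637806, not Gbx2. The next site, which begins 616 bp beyond the end of the second of this pair, had -0.14 ± 0.50 (adjusted p = 0.778) by the authors' deposited table. The rise, 2.07 ± 0.74 (adjusted p = 0.00647) by the authors' deposited table, was at chr1:89892213-89892713, 35.5 kb from Gbx2 and inside the neighbouring gene Agap1. The remaining pair of uncalled sites, 28.0 kb behind and 37.2 kb before the gene, had 0.68 ± 0.76 and -0.50 ± 0.72 by the authors' deposited table. Mean signal at the 8 sites was 4.06 to 9.07.

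Egr2 (chr10:67534469-67542188, plus strand) had 3 sites, all of high signal and all with positive fold changes, of which 1 was called. Mean signal was 19.4 to 22.5, against a median of 5.78 over all listed sites. The called rise (chr10:67535976-67536476) lay inside the gene, 727 bp after its first listed start, with 0.95 ± 0.40, or 1.93-fold, and an adjusted p of 0.0147 by the authors' deposited table. That site also overlaps the start window of Gm32255. The site 6.91 kb beyond the gene, over the start of Ado, had 0.37 ± 0.34 (95% interval -0.31 to 1.05) by the authors' deposited table. The Egr2 rise is the smallest of the 7 called rises and the only one of them under a log2 change of 1.

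**Figure D2:**
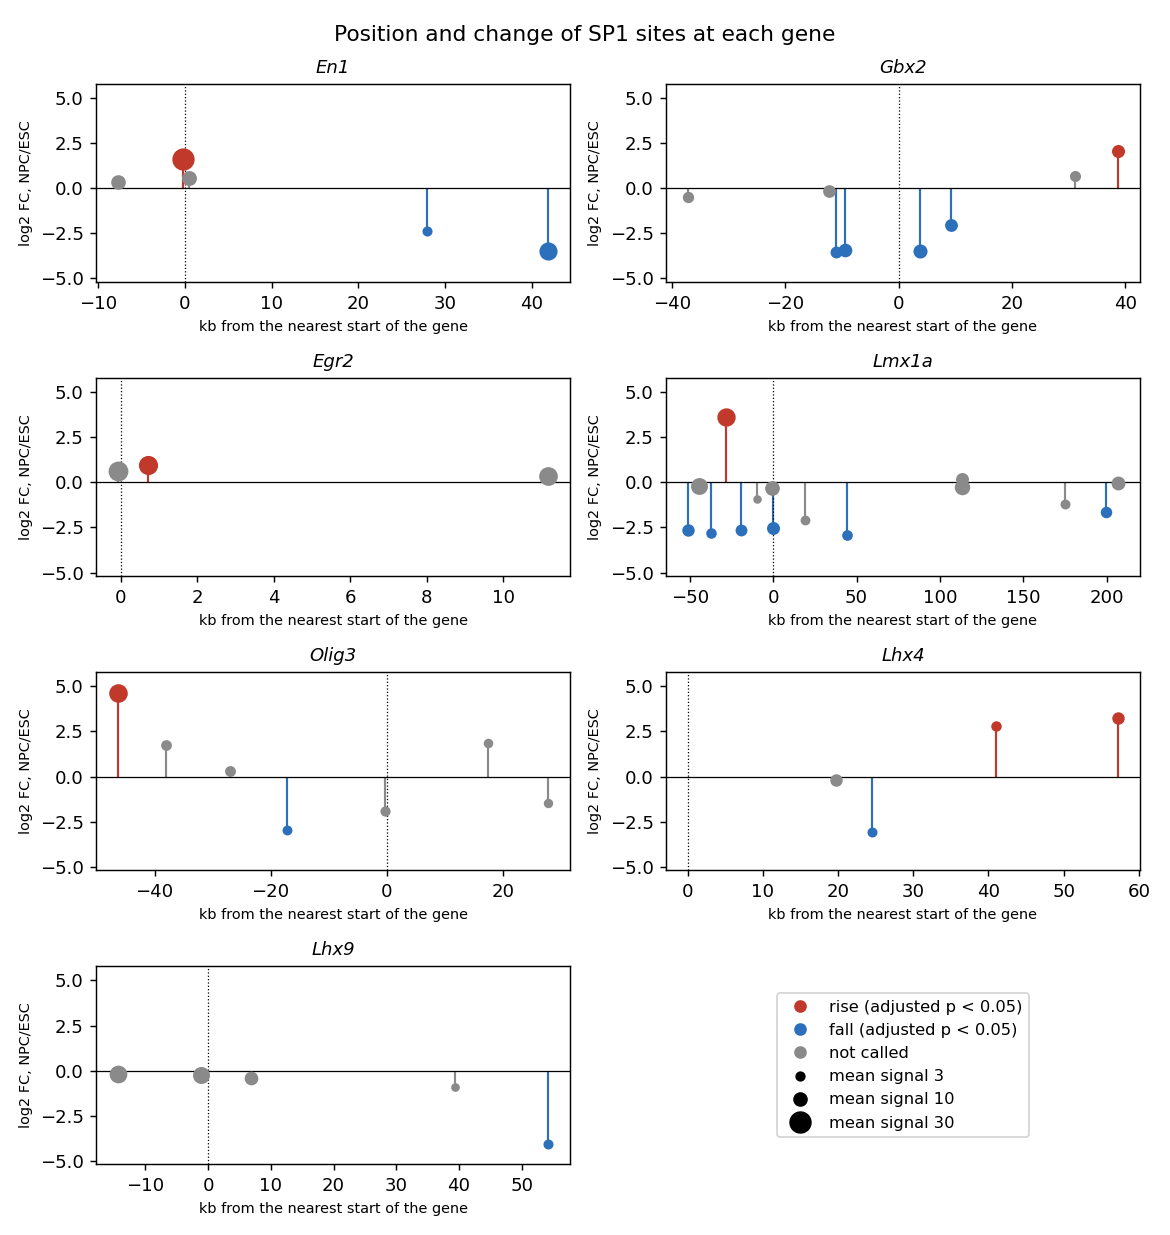
Log2 fold change (vertical, NPC over ESC) against distance in kb from the nearest RefSeq start of the gene (horizontal, negative before the start), with point area growing with mean signal. The Gbx2 falls lie within 12 kb of the start, and the Lmx1a rise lies 28.3 kb before the start with falls on both sides.

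Lmx1a (chr1:167688230-167848741, plus strand), with 16 sites, had 6 falls, 1 rise and 9 uncalled sites. The rise (chr1:167660964-167661464, mean signal 18.5) lay 28.3 kb before the start and between genes, with 3.61 ± 0.58, or 12.2-fold, and an adjusted p of 1.71e-08 by the authors' deposited table. The neighbouring sites on either side, 37.0 and 19.6 kb before the start, had falls of -2.80 ± 1.22 and -2.65 ± 0.91 (adjusted p = 0.0171 and 0.00447) by the authors' deposited table. For the rise and for the fall 37.0 kb before the start, the nearest protein-coding gene was Rxrg, not Lmx1a. Around the start, the pair of overlapping sites centred 939 and 612 bp before it had -0.31 ± 0.46 and -0.29 ± 0.47 by the authors' deposited table, neither called. Both lay inside the RefSeq gene, 389 and 716 bp from its 5' end, which lies before the start used here. The site over the start, which begins 38 bp after the end of the second of them, was the one of the 3 that fell, and their difference was not tested. Other falls were inside the neighbouring gene Rxrg, 51.3 kb before the start (-2.62 ± 0.82), inside Lmx1a 44.1 kb after it (-2.92 ± 1.19, the most negative of the gene), and 40.3 kb beyond the 3' end (-1.64 ± 0.87), by the authors' deposited table. Of these the last had an adjusted p of 0.0443 by the authors' deposited table and was not called with p recomputed (0.111). The falls 37.0 kb before and 44.1 kb after the start were lost when fold changes were centred on all sites and p was recomputed (adjusted p = 0.0766 and 0.0575). The pair inside the gene 113 and 114 kb after the start had -0.23 ± 0.40 and 0.16 ± 0.49 by the authors' deposited table.

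Olig3 (chr10:19356539-19358604, plus strand) had the largest rise of the 48 sites. It lay 46.3 kb before the gene and between genes (chr10:19309956-19310456, mean signal 19.0), with 4.62 ± 0.76, or 24.6-fold, and an adjusted p of 1.94e-08 by the authors' deposited table. The other 6 sites had mean signals of at most 3.79. One of them, 17.2 kb before the start, fell (-2.97 ± 1.42, adjusted p = 0.0243) by the authors' deposited table, but that call was lost with p recomputed (0.0745). The 5 uncalled sites had log2 fold changes from -1.89 to 1.83 with SE from 0.72 to 2.26 by the authors' deposited table, so that each 95% interval included a change of more than 2-fold in at least 1 direction.

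At Lhx4 (chr1:155698031-155751726, minus strand) a site in the 3' part of the gene and one beyond it rose, and one nearer the start fell. The site 13.3 kb beyond the 3' end (chr1:155684525-155685025), inside the neighbouring gene Acbd6, had 3.25 ± 0.95, or 9.51-fold, and an adjusted p of 0.00111 by the authors' deposited table. Inside the gene, the site 41.0 kb after the start had 2.79 ± 1.24 and the one 24.5 kb after it -3.07 ± 1.39 (adjusted p = 0.0187 and 0.0191) by the authors' deposited table. Neither of these calls held with p recomputed (0.0530 and 0.0588), and mean signals there were 3.25 and 2.66. The fourth site, 19.7 kb after the start, had -0.20 ± 0.54 by the authors' deposited table.

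Lhx9 (chr1:138825186-138848839, minus strand) had 1 call among 5 sites. The site 37.0 kb beyond its 3' end (chr1:138787962-138788462) had the most negative fold change of the 48, -4.05 ± 1.35, or 16.5-fold lower in NPC, with an adjusted p of 0.00257 by the authors' deposited table. Its mean signal was 2.67, above that of 15.0% of the listed sites. The site 1.17 kb before the start, inside the RefSeq gene, had a mean signal of 15.2 and -0.24 ± 0.36 (95% interval -0.94 to 0.46) by the authors' deposited table, and the one over the start of 2310009B15Rik had -0.19 ± 0.35 (-0.87 to 0.50). Those intervals lie within a log2 change of -1 to 1. The interval reaches further at the Lhx9 site inside the gene 6.87 kb after the start (-0.42 ± 0.52, from the authors' deposited table). It also does so at the site 22.1 kb beyond the 3' end (-0.90 ± 1.78, mean signal 1.15, by the authors' deposited table). Whether the fold changes were shrunk is not stated, so a 2-fold change is not firmly excluded at any of these sites.

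The 7 genes shared no common direction, and 5 of them had both a called rise and a called fall. Among the 1847 protein-coding genes with 3 to 16 listed sites by the same rule, 58.5% had both. With p recomputed, an alternative chosen for this count after seeing the data, 3 of the 7 had both (En1, Gbx2 and Lmx1a), against 47.1% of the 1847. Egr2 had a rise alone and Lhx9 a fall alone. By position relative to the member gene alone, 1 of the 6 sites within 1000 bp of a gene end rose and 1 fell. Of the 12 other sites inside the gene 2 rose and 3 fell, and of the 30 outside it 4 rose and 11 fell. The sites over the Lmx1a and Egr2 starts counted as inside, and the rises in Agap1 and Acbd6 as outside. All listed sites were instead classed against every protein-coding gene, so their shares are not directly comparable. Of all listed sites at the ends of protein-coding genes 24.1% rose and 16.1% fell, and of those inside such genes 24.7% rose and 33.2% fell. Of all listed sites outside protein-coding genes and more than 1000 bp from their ends, 38.3% fell and 20.5% rose. Of the 48 sites, 35 had the member as the nearest protein-coding gene and 6 lay inside another RefSeq gene, and a site near a gene need not act on it.

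Mean signal ran from 0.961 to 29.6 with a median of 6.42. Of the 27 sites at or above the median signal of all listed sites 6 rose and 6 fell, and of the 21 below it 1 rose and 9 fell. The same split over all listed sites gave 28.9% rises and 30.3% falls above, and 16.7% and 34.9% below. Counts per site were low, and the SE of the 48 fold changes ranged from 0.32 to 2.26. Of the 26 uncalled sites, 22 had a 95% interval that reached a log2 change of 1 in at least 1 direction, so a 2-fold change was not excluded there. The other 4 had an interval within -1 to 1. These do not firmly exclude such a change, as whether the fold changes were shrunk is not stated.

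**Figure D3:**
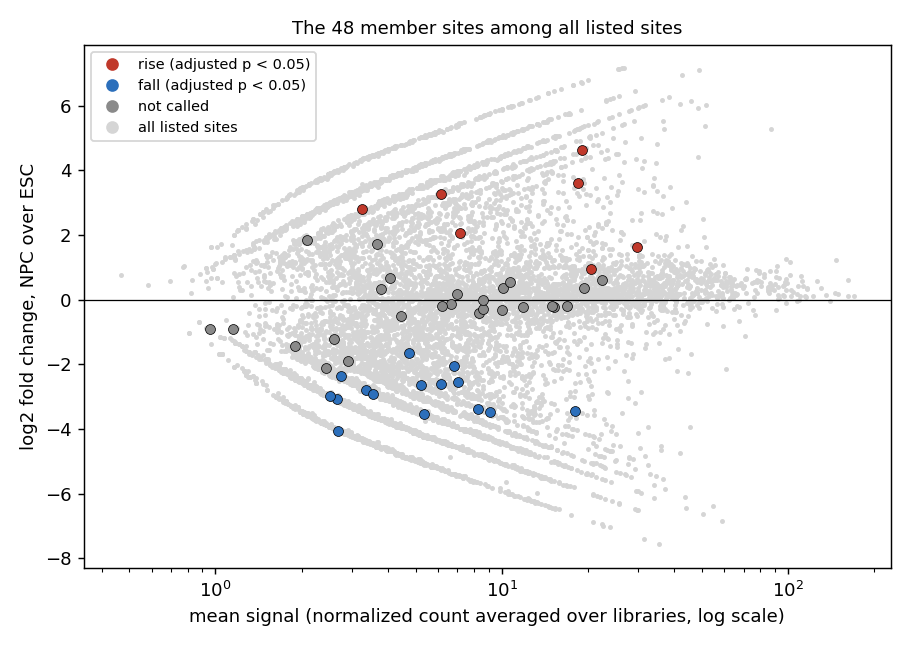
Log2 fold change, NPC over ESC, against mean signal (log scale) for all 9001 listed sites (light grey) and the 48 sites of the 7 genes (coloured by call). The 9 falls below a mean signal of 5.78 sit at the lower left, and the rises at Olig3 and Lmx1a, at mean signals of 19.0 and 18.5, at the upper right.

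The 50000 bp limit split some neighbouring sites. Nearest to the limit inside it was the Lmx1a site in Rxrg, 49975 bp from the gene, with -2.62 ± 0.82 by the authors' deposited table, and just outside it a site 51057 bp from Lmx1a had -0.26 ± 0.49. Other sites just outside lay 51438 bp from Gbx2 (0.29 ± 0.34), 51403 bp from Lhx4 (-1.93 ± 1.38) and 54497 bp from Olig3 (-2.75 ± 1.04) by the authors' deposited table.

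Other patterning and proneural genes had a larger share of rises than the 7 genes. From a list of 81 such genes 17 had sites, 129 in all and none shared with the 7 genes. Of these sites 39 rose (30.2%), 44 fell (34.1%) and 46 were not called, with a median log2 fold change of -0.18 by the authors' deposited table. Over all listed sites 22.8% rose and 32.6% fell, so the share of falls lay near the background. The differences in rises from that share and from the 14.6% at the 7 genes were not tested. The list was chosen with earlier results of these data known and includes the NPC markers Pou3f3, Meis1 and Nr2e1. Rises alone were called at Prox1 (5 of 8 sites) and Pou3f3 (3 of 5), and falls alone at Atoh7 (3 of 6), Sim1 (3 of 5), Pax3 (1 of 4) and Nr2e1 (1 of 5). At Neurod4, a gene of neuronal differentiation, 4 of 6 fell and 1 rose. Neurog3 had no called site among 3, and the other 9 genes had calls both ways.

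Among the other patterning genes the strongest sites went in both directions. The leading site of Gli2, a hedgehog effector, had 3.31 ± 0.43 (adjusted p = 1.65e-12) by the authors' deposited table. The Notch target Hey2 had a rise of 3.62 ± 0.66 at 40.8 kb from the gene and Meis1 one of 1.81 ± 0.33 by the authors' deposited table. Inside Prox1, a homeobox gene, a site rose by 5.12 ± 1.15, a log2 change given by the authors' deposited table. The leading sites of Neurod4, 38.4 kb from the gene, and of Nhlh1, at the gene's end, fell, with -3.58 ± 0.67 and -5.23 ± 1.19 by the authors' deposited table.

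**Figure D4:**
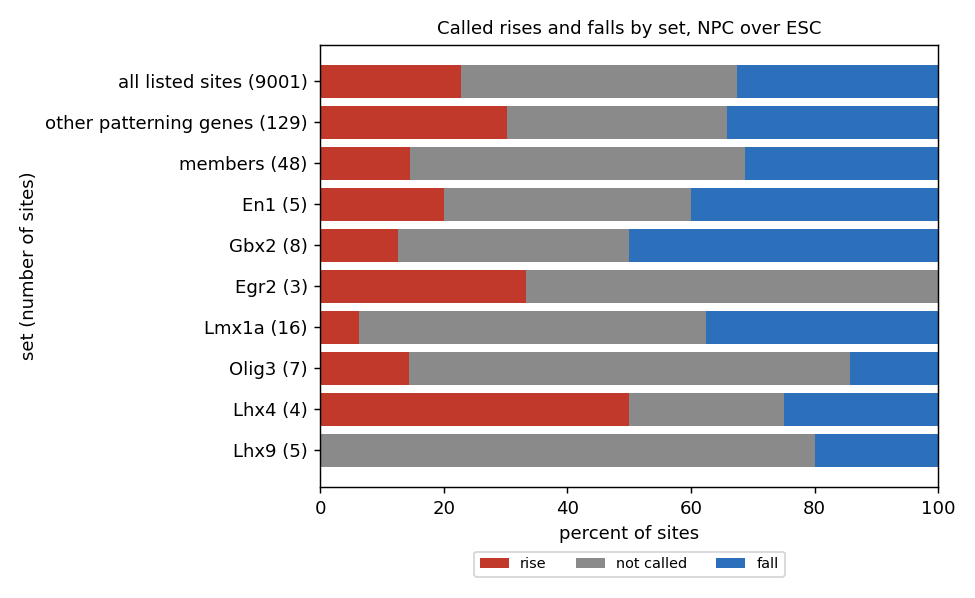
Percent of sites called as a rise, called as a fall or not called in NPC over ESC, for all listed sites, the other patterning genes, the 48 member sites and each of the 7 genes, with the number of sites in brackets. Rises make up 22.8% of all listed sites, 30.2% at the other patterning genes and 14.6% of the 48 sites, and each gene's bar rests on 3 to 16 sites.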

How the data were processed

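Accessibility was measured by ATAC-seq in 3 ESC and 3 NPC libraries, grouped by title, with about 50000 nuclei per replicate tagmented for 5 min per the labels' protocols. Per the submitters' processing notes, BWA 2.1, Picard 2.23.8, MACS2 2.2.7, SAMtools 1.9, DESeq2 and the mm10 build were used, without the role of each. The choice of SP1 sites and any shift of reads for the Tn5 offset, not given in the sources used here, could change the values. The deposited table holds, per the file headers, a mean signal (normalized count), a log2 fold change with its SE, a p-value and an adjusted p-value for each site. The direction was taken from the table's name. The authors adjusted p-values over more sites than are listed, since the smallest adjusted p is 51514 times its p. Depth per library is unknown and no test could be refitted.

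Sites were assigned with Python 3.11.15, pandas 2.3.3 and scipy 1.17.1. A call was a deposited adjusted p below 0.05. Intervals of 95% are normal intervals from the deposited SE. Recomputed p-values came from fold change over SE, with Benjamini-Hochberg adjustment over the 9001 sites, a step tested on simulated data. Recomputed p-values were at least as large as the deposited ones at all 9001 sites, and whether the fold changes were shrunk, which would understate those of low-signal sites, is not stated. Distances run from a site's midpoint to the nearest RefSeq start or gene end (GRCm38.p6). Coordinates of sites are printed as deposited, and the first base may be numbered 0 or 1, which the table leaves unstated. Exons and introns were not analysed here. Members and lists were chosen with earlier results of these data known. Named sites were those within 1000 bp of a gene end and the largest called rise and fall of each member, with the leading sites of other genes, of which 6 are given and the rest are not reported here. Sites named beyond that rule were chosen after their values were seen. Marker lists were Tfcp2l1, Prdm14, Nodal, Lefty1, Lefty2, Nr5a2 and Dnmt3l for ESC, Fabp7, Pou3f3, Meis1 and Nr2e1 for NPC, Sox17, Mixl1 and T (no site) for mesoderm and endoderm, and Map2 and Syt1 for neurons.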

Additional observations from a re-analysis of the deposited data

How the results depend on the processing

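No paired analysis was possible because the table holds no values per library, and for the same reason no library could be left out. Leaving out each gene in turn gave 5 to 7 rises, 9 to 15 falls and medians of -0.42 to -0.19. The main counts of 7 rises and 15 falls became 3 and 6 within 10000 bp, 10 and 28 within 100000 bp (median -0.50), and 2 and 3 inside the gene only, windows that hold other numbers of sites. Falls numbered 6 among sites of at least median signal (median -0.19), 9 at an adjusted p below 0.01 and 9 with centring (median -0.013), and rises 4 when a site counted only at its nearest gene (median -0.42). The median of gene medians was 0.33, of opposite sign. Recomputed p-values, at least as large as the deposited ones at every site, gave 6 rises and 11 falls. A minimum log2 change of 1 gave 6 and 15, and 1 site per overlap group 7 and 15. At the other patterning genes falls were 29 within 10000 bp, 26 at high signal (median 0.0073, of opposite sign), 29 at an adjusted p below 0.01 and 23 inside the gene, where rises were 22. Centring turned the sign of 7 uncalled sites, to 0.15 at Gbx2, 0.087 at Lhx4, 0.045 and 0.098 at Lhx9, and 0.097, 0.052 and 0.26 at Lmx1a. The number of genes with both a rise and a fall, 5, stayed 5 with a minimum log2 change of 1. It became 3 at an adjusted p below 0.01, with p recomputed and with centring. Among the 1847 genes compared, 58.5% had both as reported and 49.4% with a minimum log2 change of 1. The share was 39.4% at an adjusted p below 0.01, 47.1% with p recomputed and 51.5% with centring. These alternatives were added after seeing the data. The cause of these differences was not tested.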
